A study of Mus musculus with 8 samples.

Results

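Sorl1, Cadm1, Npy, Klk8 and Tc2n are 5 of the 17921 genes counted in single cells of mouse lung grafts. They were chosen from large differences of their level in alveolar macrophages between HLA→B6 and B6→B6 grafts, so their values in that cell type are given as a description and carry no test. Each graft was an orthotopic left lung transplant (LTx) into a male B6 recipient, taken at 1 month with no immunosuppression in either group. The donor was a male C57BL/6 mouse in the syngeneic B6→B6 group (n = 5 mice) and a male mouse of the B6 background with the transgene Tg(HLA-A2.1)1Enge, for the human MHC class I molecule HLA-A2.1, in the HLA→B6 group (n = 3 mice), the model of bronchiolitis obliterans syndrome (BOS). No lung without a transplant was analysed here. Cells were dissociated from the graft, captured in droplets and counted at transcript 3′ ends as unique molecular identifiers (UMIs, 1 per captured transcript). Levels are given as CPM, the UMIs of a gene scaled to a total of 1000000 UMIs summed over the cells of a type in a mouse. A graft holds donor and recipient cells, and the labels do not separate them.

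The genes do unlike jobs. Sorl1 encodes a sorting receptor of the Vps10 family that carries cargo such as the amyloid precursor protein between the Golgi and endosomes, together with the retromer complex. Cadm1 encodes an adhesion molecule of the nectin-like branch of the immunoglobulin superfamily, found on epithelium, mast cells and cross-presenting dendritic cells. Npy encodes neuropeptide Y, a secreted peptide best known from sympathetic nerves, which signals through receptors coupled to G proteins. Klk8 encodes a secreted serine protease of the kallikrein family, also called neuropsin and best known from skin and brain. Tc2n encodes a protein with tandem C2 domains, a fold that in many proteins binds membrane lipids. Alveolar macrophages are the phagocytes of the airspace, which are seeded around birth, depend on PPARγ and clear surfactant, and in an injured lung monocytes can enter the airspace and take on part of their profile.

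In mouse genome build GRCm38 with the GENCODE vM21 annotation, all 5 are protein-coding genes. Sorl1 lies on the minus strand at chr9:41964720-42124297, Cadm1 on the plus strand at chr9:47530173-47857637, Npy on the plus strand at chr6:49822710-49829507, Klk8 on the plus strand at chr7:43797577-43803826 and Tc2n on the minus strand at chr12:101645443-101718523. The 250 bases before the annotated start are shown for 4 of them because they are genes that moved in opposite directions in 1 cell type, Sorl1 and Npy against Klk8 and Tc2n. The sequences are from RefSeq, build GRCm38.p6, and read 5′ to 3′ on the strand of the gene; Cadm1 had no entry. Capitals mark any match on either strand to CACGTG (an E-box), GAGGAA (the core of sites of the myeloid factor PU.1), AGGTCA (a core site of nuclear receptors such as PPARγ), TGACTCA (AP-1), TATAAA (the TATA box) or GGGCGG (a GC box). No marked match overlaps another.

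Sorl1, chr9:42124298-42124547, minus strand: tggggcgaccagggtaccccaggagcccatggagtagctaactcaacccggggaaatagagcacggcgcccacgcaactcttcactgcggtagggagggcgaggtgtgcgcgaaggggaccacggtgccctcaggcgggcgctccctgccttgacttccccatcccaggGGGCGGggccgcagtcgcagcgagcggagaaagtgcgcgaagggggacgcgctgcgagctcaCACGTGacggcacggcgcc
Npy, chr6:49822460-49822709, plus strand: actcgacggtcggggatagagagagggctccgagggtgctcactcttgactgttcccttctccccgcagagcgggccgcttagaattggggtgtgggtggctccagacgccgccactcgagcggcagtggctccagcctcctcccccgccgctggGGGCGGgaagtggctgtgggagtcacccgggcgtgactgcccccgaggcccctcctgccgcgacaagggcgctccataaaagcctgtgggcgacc
Klk8, chr7:43797327-43797576, plus strand: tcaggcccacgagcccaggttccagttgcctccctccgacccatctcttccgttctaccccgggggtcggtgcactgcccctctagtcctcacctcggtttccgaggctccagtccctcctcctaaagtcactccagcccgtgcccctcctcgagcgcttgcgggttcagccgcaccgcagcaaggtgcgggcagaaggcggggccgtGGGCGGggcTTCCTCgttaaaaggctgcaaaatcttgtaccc
Tc2n, chr12:101718524-101718773, minus strand: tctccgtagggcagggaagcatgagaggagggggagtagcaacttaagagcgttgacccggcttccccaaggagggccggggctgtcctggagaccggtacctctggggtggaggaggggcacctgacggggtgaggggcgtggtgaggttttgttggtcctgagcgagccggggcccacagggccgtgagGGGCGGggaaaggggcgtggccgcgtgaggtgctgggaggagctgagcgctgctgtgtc

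The 4 windows shown were rich in G and C, with 65.2% for Klk8, 68.0% for Tc2n, 69.2% for Npy and 69.6% for Sorl1 against a median of 52.4% over 32851 promoters of the same length. RefSeq lists a further start for Sorl1 and for Tc2n, whose windows had 47.2% and 57.2% and held none of the motifs searched. Each window shown held a GC box, at 81 bases before the start in Sorl1, 95 in Npy, 42 in Klk8 and 59 in Tc2n, and 32.7% of all promoters hold one. The E-box of Sorl1 lay 19 bases before the start, and 6.02% of promoters hold that motif. The PU.1 core of Klk8 lay 33 bases before the start on the opposite strand, and 23.3% of promoters hold it. No window shown held the nuclear receptor site, the AP-1 site or the TATA box, which 14.0%, 4.46% and 12.4% of promoters hold. Sequencing from the 3′ end does not show which start was used, so the letters are given only as the annotated sequence.

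The table held 20778 cells and between 1669076 and 12445769 UMIs per mouse, with a median of 1356 to 1948 UMIs per cell. Of these, 2494 cells carried the label alveolar macrophage, between 105 and 685 per B6→B6 mouse and between 130 and 514 per HLA→B6 mouse. Their median depth per mouse ran from 803 to 3837 UMIs per cell in B6→B6 and from 897.5 to 7144 in HLA→B6. Some libraries stood apart in that they shared more cell barcodes than random draws of barcodes would give. Linked in this way were HLA→B6 replicate 2 and, of the B6→B6 mice, replicates 1 to 3, and 1014 cells in all, 396 of them alveolar macrophages, carried a barcode also present in another mouse. The pooled ratios and log2 differences of the 5 genes in alveolar macrophages are therefore given with and without those cells. The levels per mouse, shares of cells, spread over cells and list calls include them. The label was checked against markers. Marco, a scavenger receptor of alveolar macrophages, was at 202 CPM in the pooled B6→B6 cells and 10.3 in HLA→B6, and Chil3 at 6523 and 1063 CPM, while Fabp4, a lipid carrier, was at 101 and 177 CPM. Siglecf was at 50.6 and 9.01 CPM and Ear2 at 2129 and 260 CPM. These markers were thus detected in both groups, and all but Fabp4 were lower in HLA→B6. Fabp4 is not particular to this label, with 295 CPM in monocytes against 145 in all alveolar macrophages pooled. Marco was in 0.195% of the labelled cells in the mouse with the lowest share, HLA→B6 replicate 2, and in 24.8% in that with the highest. The summed level of 24 alveolar macrophage markers was 8803, 3348 and 9881 CPM in HLA→B6 replicates 1 to 3. It ran from 18791 to 24363 CPM in B6→B6. Replicate 2, the lowest, held 136 of the 174 Sorl1, 183 of the 286 Cadm1 and 185 of the 242 Npy UMIs of HLA→B6. The label is thus least borne out by these markers in the mouse that held most of those UMIs. Xcr1, a marker of cross-presenting dendritic cells, was at 0.77 CPM in the pooled B6→B6 cells and 2.76 in HLA→B6, and Clec9a at 1.54 and 9.01. The dendritic cell markers Cd209a and Ccr7 went the other way, at 4.11 and 0.92 CPM and at 4.62 and 1.47 CPM. Cpa3, of mast cells, was at 0. An admixture of dendritic cells was not tested.

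In alveolar macrophages, Sorl1, Cadm1 and Npy were low in B6→B6, with at most 7 UMIs in a mouse, and present in every HLA→B6 mouse. Klk8 and Tc2n showed the reverse, with at most 2 UMIs in an HLA→B6 mouse. The counts of single mice were small on both sides, and Klk8 rested on 5 UMIs in B6→B6 replicate 2. Sorl1 was at 0, 8.35, 2.03, 0 and 0 CPM in B6→B6 replicates 1 to 5 and at 21.3, 37.0 and 22.4 CPM in HLA→B6 replicates 1 to 3. Cadm1 was at 3.30, 4.18, 14.2, 0.45 and 0 CPM in B6→B6 and at 66.8, 49.8 and 25.2 CPM in HLA→B6. Npy was at 6.59, 8.35, 0, 2.25 and 0 CPM in B6→B6 and at 29.1, 50.4 and 44.8 CPM in HLA→B6. For each of these genes the lowest HLA→B6 mouse was above the highest B6→B6 mouse, and the closest approach was Cadm1 in B6→B6 replicate 3 and HLA→B6 replicate 3.

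Klk8 was at 23.1, 10.4, 26.4, 21.1 and 15.1 CPM in B6→B6 and at 0.711, 0.545 and 0 CPM in HLA→B6. Tc2n was at 26.4, 27.1, 18.3, 18.4 and 42.7 CPM in B6→B6 and at 1.42, 0.272 and 2.80 CPM in HLA→B6. Both were present in every B6→B6 mouse and rested on 3 and 4 UMIs in all HLA→B6 mice together. Groups did not overlap for any of the 5 genes, and over the 5798 genes tested in this cell type 22.9% had groups that did not overlap.

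**Figure D1:**
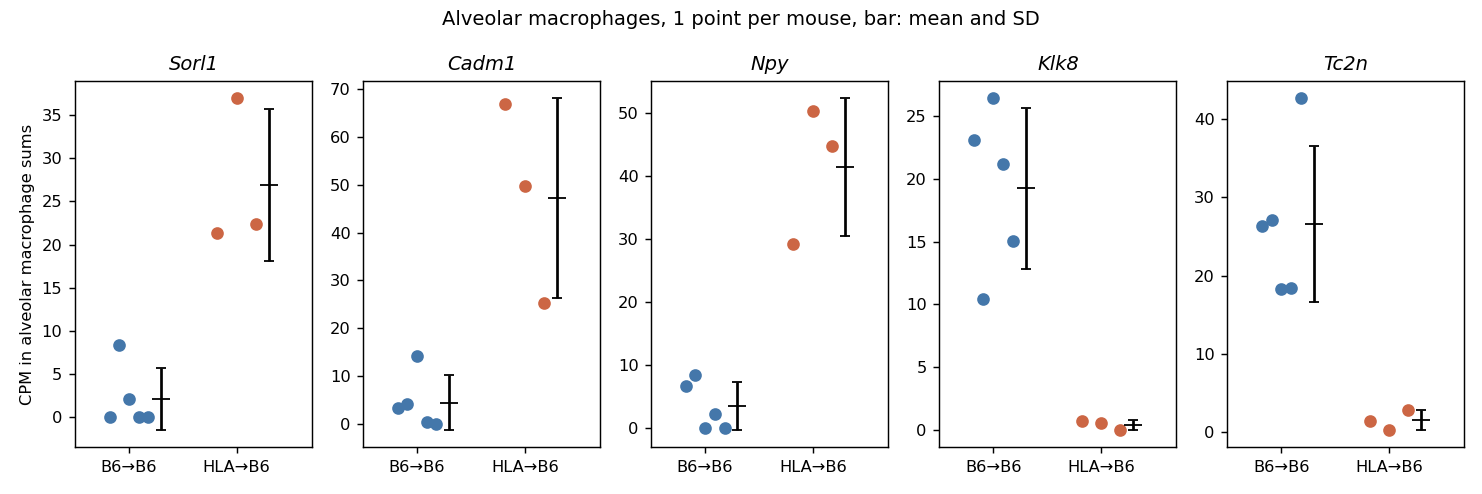
CPM of each gene in the summed alveolar macrophages of each mouse (vertical axes, CPM, own scale per gene; 1 point per mouse, n = 5 B6→B6 and n = 3 HLA→B6; black bars, mean and SD). The 3 HLA→B6 points lie above all 5 B6→B6 points for Sorl1, Cadm1 and Npy and below them for Klk8 and Tc2n, the direction by which the genes were chosen.

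Mean levels were 2.08 ± 3.62 CPM in B6→B6 and 26.9 ± 8.78 in HLA→B6 for Sorl1, 4.43 ± 5.77 and 47.3 ± 20.9 for Cadm1, and 3.44 ± 3.85 and 41.4 ± 11.0 for Npy (SD, n = 5 and n = 3). They were 19.2 ± 6.42 and 0.418 ± 0.372 for Klk8, and 26.6 ± 9.95 and 1.50 ± 1.26 for Tc2n. The log2 difference of edgeR between the groups, HLA→B6 minus B6→B6, was 4.47 ± 0.77 (SE) for Sorl1, 4.15 ± 0.67 for Cadm1, 4.01 ± 0.55 for Npy, -4.65 ± 0.53 for Klk8 and -4.58 ± 0.60 for Tc2n. By size, Sorl1, Cadm1 and Npy stood at ranks 1, 2 and 3 of the 2776 genes that were higher, and Klk8 and Tc2n at ranks 6 and 7 of the 3022 that were lower. All 5 passed the filter on low counts, each through the group in which it was high. At an adjusted p of 0.05 this fit called 12.3% of genes, 6.36% higher and 5.92% lower in HLA→B6, which is the background of these members and no support for them.

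The counts behind these levels were small in the low group. With all cells pooled, the CPM ratio was 24.9 for Sorl1 (95% counting interval 10.5 to 77.7), 18.6 for Cadm1 (10.3 to 37.7) and 15.8 for Npy (8.65 to 32.0), higher in HLA→B6. It was 36.3 for Klk8 (12.0 to 180) and 30.7 for Tc2n (11.6 to 115), higher in B6→B6. These intervals, and those for shares of cells, cover counting error only and not the spread between mice.

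Without the cells of shared barcodes the ratios were 35.7 for Sorl1, 40.4 for Cadm1 and 27.0 for Npy, higher in HLA→B6, and 22.1 for Klk8 and 21.7 for Tc2n, higher in B6→B6. Npy then fell to 0 UMIs in all B6→B6 mice except replicate 4, which held 5. Of the 7 B6→B6 alveolar macrophages with an Npy UMI, 5 carried a shared barcode, 4 of these had a partner of the same barcode in an HLA→B6 mouse, and all 4 partners held Npy too. For Cadm1 the same counts were 8, 4, 3 and 2 cells and for Sorl1 5, 2, 1 and 1. For Klk8 and Tc2n, which are high in B6→B6, 2 of 68 and 1 of 75 positive B6→B6 cells had an HLA→B6 partner, and 0 partners held the gene.

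Single cells showed how each level was made up. Cells were pooled over mice, 1423 from B6→B6 and 1071 from HLA→B6. A UMI of Sorl1 was in 0.351% and 12.5%, of Cadm1 in 0.562% and 13.1%, and of Npy in 0.492% and 5.23%. By mouse, Sorl1 was in 28 of 427, 100 of 514 and 6 of 130 cells of HLA→B6 replicates 1 to 3. In the same mice Cadm1 was in 42, 90 and 8 cells and Npy in 11, 41 and 4. Replicate 2, with the deepest cells, thus had the most positive cells for each gene. A UMI of Klk8 was in 4.78% and 0.28%, and of Tc2n in 5.27% and 0.373%. The 2010 alveolar macrophages of at least 1000 UMIs were also thinned to that depth, with shallower cells left out. The shares were then 0.0789% and 2.49% for Sorl1, 0.175% and 4.88% for Cadm1 and 0.157% and 2.13% for Npy. They were 1.83% and 0.123% for Klk8 and 2.30% and 0.141% for Tc2n. Pooled over mice, the order of the groups held at equal depth for every gene.

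Npy differed from the others in its spread over cells. The 242 Npy UMIs of the HLA→B6 group lay in 56 cells, a mean of 4.32 per positive cell, with 15 cells at 5 or more, and the highest cell, in replicate 2, held 27. The 5 richest cells held 42.6% of these UMIs. Sorl1, by contrast, had 174 UMIs in 134 cells, 105 of them with 1 UMI, and its 5 richest cells held 10.3%. Cadm1 lay between, with 286 UMIs in 140 cells, 74 of them with 1 UMI and 12 with 5 or more. Klk8 and Tc2n in B6→B6 were spread thinly, with 58 of 68 and 63 of 75 positive cells at 1 UMI. In the 3 HLA→B6 mice the mean of Npy per positive cell was 3.73, 4.51 and 4.00, over 11, 41 and 4 cells, and the highest cell held 10, 27 and 6. The 5 richest cells of replicate 2 alone held 103 UMIs, as many as the 5 richest of the group. The similar means were thus seen in each mouse, while the richest cells rested on replicate 2. Of the 185 Npy UMIs of replicate 2, 101 lay in cells of shared barcodes.

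**Figure D2:**
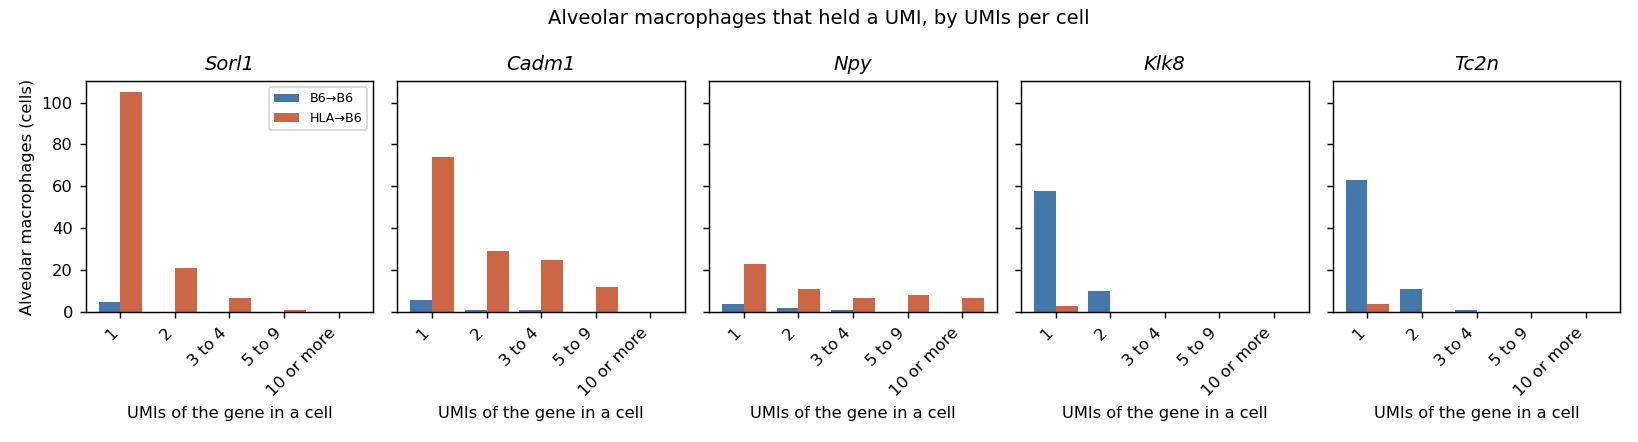
Number of alveolar macrophages (vertical axis, cells, 0 at the base) by the UMIs of a gene they held (horizontal axis, classes of UMIs per cell), for B6→B6 and HLA→B6. Cells without a UMI are left out. Npy is the gene that reaches the class of 10 or more, with 7 HLA→B6 cells.

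For pairs of the genes that were high in HLA→B6, cells that held both were counted against the number expected. Whether the pairs differ from each other was not tested. In strata of equal depth, cells with both Sorl1 and Cadm1 numbered 4, 15 and 0 in HLA→B6 replicates 1 to 3, where 3.33, 20.6 and 1.15 were expected if the genes were independent. The mean log2 ratio was -0.65 over 3 mice, with an exact two-sided sign permutation p of 0.5, and 3 mice cannot give a p below 0.25. Sorl1 and Npy were together in 3, 11 and 2 cells of replicates 1 to 3 against 1.34, 10.8 and 0.769 expected, above the expected number in each mouse. Cadm1 and Npy were together in 0, 5 and 0 cells against 1.32, 8.07 and 0.923. Neither of these pairs reached an expected number of 1 in all 3 mice, and they were not tested. In B6→B6 replicate 4, Klk8 and Tc2n shared 1 cell where 2.48 were expected. The other pairs had too few cells for an expected number of 1.

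Positive cells were also compared with negative cells of the same depth and mouse for 5 marker lists. With 5 B6→B6 or 3 HLA→B6 mice an exact permutation over mice cannot give a p below 0.0625 or 0.25, so the differences are given as values. In B6→B6, cells with Tc2n had a larger share of UMIs from alveolar macrophage markers in 5 of 5 mice, by a mean of 0.274 percentage points (0.0436 to 0.648), and a smaller share from monocyte-derived macrophage markers in 5 of 5 mice, by a mean of -0.40 points. Cells with Klk8, the other gene high in B6→B6, had a larger share from alveolar macrophage markers in 2 of 5 mice, with a mean difference of -0.201 points (-1.04 to 0.125). In HLA→B6, cells with Cadm1 had a smaller share from alveolar macrophage markers in 3 of 3 mice, by a mean of -0.41 points (-0.952 to -0.128), and so did cells with Sorl1, by -0.071. Cells with Sorl1 had a larger share from monocyte-derived macrophage markers in 3 of 3 mice, by a mean of 0.279 points (0.0115 to 0.673). Cells with Cadm1 did so in 2 of 3 mice, with a mean of 0.936 points (-0.128 to 2.40). Npy had enough positive cells in 2 HLA→B6 mice. Its positive cells had a larger share from alveolar macrophage markers in 1 of 2 mice (mean 0.049 points). For monocyte-derived macrophage markers this was also 1 of 2 mice (mean -0.069 points).

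Other cells' transcripts were counted in the same alveolar macrophages. The summed level of 11 epithelial markers, which were all detected, ran from 52.2 to 490 CPM in B6→B6 and from 16.6 to 118 in HLA→B6, that of 8 T cell markers, all detected, from 10.1 to 166 and from 33.6 to 119, and that of 7 endothelial markers, all detected, from 26.4 to 205 and from 23.7 to 73.2. For neutrophil markers, 7 of 8 detected with Ly6g at 0, it ran from 52.7 to 183 and from 100 to 604 CPM. In B6→B6, T cell markers were in 17 of 68 Klk8-positive cells (25%) and in 14.2% of negative ones, endothelial markers in 36.8% and 17.9%, and epithelial markers in 48.5% and 32.3%, at a median of 3297 and 2572 UMIs per cell. Neutrophil markers were in 27.9% of Klk8-positive and 26.3% of negative cells. For Tc2n-positive and negative cells the shares were 16.0% and 14.6% for T cell markers, 17.3% and 18.9% for endothelial markers, 36.0% and 32.9% for epithelial markers, 34.7% and 26.0% for neutrophil markers and 5.33% and 1.71% for B cell markers. Among HLA→B6 cells, neutrophil markers were in 45.5% of Sorl1-positive and 29.3% of negative ones, at medians of 8911.5 and 3425 UMIs. For Npy they were in 48.2% and 30.4%, at medians of 9606 and 3832 UMIs, and for Cadm1 in 28.6% and 31.8%. For Sorl1 the shares were 8.21% and 9.07% for T cell markers and 4.48% and 3.95% for B cell markers. They were 11.2% and 11.1% for epithelial markers and 6.72% and 9.28% for endothelial markers. B cell markers were in 9.29% of Cadm1-positive and 3.22% of negative cells. The part of these transcripts in the levels of the 5 genes was not tested.

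Genes of the same pathways were counted from lists that were drawn up with earlier results known. Among 19 tested sorting receptors and retromer genes, 3 rose and 3 fell in HLA→B6 (edgeR, adjusted p under 0.05), where 6.36% of all genes rose and 5.92% fell, and the median log2 difference was -0.06 against -0.03 over all genes tested. Igf2r, the cation-independent mannose-6-phosphate receptor, rose by 2.34 (adjusted p = 0.0233), Lrpap1, the chaperone of LDL receptor relatives, by 1.69 and Snx5, a sorting nexin, by 1.04. Sort1, which like Sorl1 is a Vps10 receptor, fell by 1.12 (adjusted p = 0.0331), Snx1 by 0.76 and Aplp2, a relative of the amyloid precursor protein, by 0.90. Of the list of nectin and nectin-like adhesion, the 2 tested genes were Afdn and Mpp6, neither of them a nectin or nectin-like gene, and neither was called. No listed nectin or nectin-like gene besides Cadm1 passed the filter on low counts. Of the kallikrein list, the 3 tested genes were Slpi, Serpina3g and Serpinb6a, and none was called. Of 20 further neuropeptide Y system genes, 11 were in the table and 0 passed the filter on low counts; its receptor Npy1r was at 0 in these cells. Of 3 tested genes with tandem C2 domains, Esyt2, which tethers the endoplasmic reticulum to the plasma membrane, fell by 1.04 and the others were not called.

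Lists of macrophage states moved further. Of 24 alveolar macrophage markers 13 fell and 0 rose, beside 5.92% and 6.36% of all genes, with a median log2 difference of -1.72; Perp fell by 4.29, Car4, a carbonic anhydrase, fell by 4.19 and Marco fell by 3.68. Of 21 tested monocyte and monocyte-derived macrophage markers 8 rose and 0 fell, beside the same 6.36% and 5.92%, with a median of 1.73; Mmp14, a membrane metalloprotease, rose by 3.89, the monocyte antigen Ly6c2 by 3.67 and Ms4a7 by 2.64. The cells labelled alveolar macrophage therefore differed between the groups in many markers of their type, alongside the 5 genes. Of 8 tested cell cycle genes 5 fell, beside 5.92% of all genes, among them Rrm2, Top2a and Stmn1, by 2.01, 1.72 and 1.60. Epcam and Cdh1, epithelial adhesion molecules, fell by 3.89 and 3.36. Of 3 tested dendritic cell markers 2 rose, Batf3 by 1.48 and Irf8 by 1.23, and 0 fell, beside 6.36% and 5.92% of all genes. The summed level of the 12 dendritic cell markers ran from 380 to 541 CPM in B6→B6 and from 400 to 433 in HLA→B6.

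Across the other cell types each gene had its own place. Sorl1 was highest in the cells labelled leukocyte, at 402 ± 73.0 CPM (SD, n = 7 mice with at least 10 cells), which were marked by the neutrophil genes S100a8, in 99.8% of cells, and Retnlg, in 83.9%. It was at 96.1 ± 22.4 CPM in B cells, 87.2 ± 35.5 in monocytes, 40.6 ± 14.9 in T cells and 35.2 ± 20.4 in natural killer cells (n = 8 each). In the 3 HLA→B6 mice Sorl1 was at 26.9 ± 8.78 CPM in alveolar macrophages, 42.3 ± 22.6 in natural killer cells, 46.1 ± 16.2 in T cells, 82.4 ± 8.78 in monocytes and 93.5 ± 23.5 in B cells. Of all Sorl1 UMIs, 22.8% were in leukocytes, 20.7% in monocytes and 8.81% in alveolar macrophages.

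Among cell types with at least 10 cells in most mice, Cadm1 was highest in lung structural cells, at 146 ± 73.3 CPM, then in myeloid cells, at 51.7 ± 30.5 (n = 8 each). Among structural clusters, named as deposited, pooled Cadm1 was at 305 CPM in MHC II+ endothelial cells, 216 in the larger cluster of epithelial cells (1347 cells), 181 in Krt8+ epithelial cells, 166 in Vcam1+ endothelial cells and 152 in fibroblasts and smooth muscle cells. Epcam, an epithelial marker, was in 0.653% of all 5514 structural cells, at a median of 1126.5 UMIs per cell. Most of the 1347 cells of the larger cluster named epithelial thus held no Epcam UMI. Its deposited name is not borne out by this marker, and Epcam was not counted per cluster. Cadm1 was also in 22 of 32 type 2 pneumocytes, the surfactant-making epithelial cells, at 185 CPM. This level was above the 159 CPM of all structural cells pooled but from too few cells per mouse to be placed in the order. Of 1011 natural killer cells 0 held a Cadm1 UMI, which allows a share of cells with a UMI of up to 0.297%. At a median of 1484 UMIs per cell this does not limit the share of cells that express the gene, nor do the like limits given for Npy and Tc2n.

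Npy had by far the narrowest distribution. Alveolar macrophages held 97.3% of its UMIs, and 7 Npy UMIs were counted in all the other cells: 2 in B cells, 2 in monocytes, and 1 each in T cells, lung structural cells and plasma cells. Of 1390 leukocytes and 755 myeloid cells 0 held one, which allows shares of cells with a UMI of up to 0.216% and 0.397%, at median depths of 678.5 and 3400 UMIs. Neurons, its best-known source, are not among the labelled cell types.

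Klk8 was highest in T cells, at 157 ± 29.8 CPM, then in lung structural cells at 49.7 ± 25.4 (n = 8 each). A UMI was in 22.4% of the 4117 cells of the larger T cell cluster, and in 0.481% of B cells and 0.661% of monocytes, at median depths of 1862, 1597.5 and 2155.5 UMIs per cell. Within structural cells, in clusters named as deposited, it was at 123 CPM in Vcam1+ endothelial cells and 87.4 in T cells. It was at 75.2 CPM in a cluster of 529 cells deposited as epithelial, most of which likewise held no Epcam UMI. It was at 73.7 CPM in MHC II+ endothelial cells. Its mean level in B6→B6 alveolar macrophages was 19.2 CPM.

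Of all Tc2n UMIs, 71.9% were in alveolar macrophages and 6.25% in type 2 pneumocytes. Lung structural cells held 23 UMIs, of which 11 lay in 6 of 32 Prox1+ endothelial cells (181 CPM). Pooled over mice, Tc2n was at 36.1 CPM in type 2 pneumocytes and 9.86 in alveolar macrophages, and it was in 7 of 32 type 2 pneumocytes, all 7 among the 22 cells of B6→B6 grafts. No B cell, myeloid cell, leukocyte or natural killer cell held a Tc2n UMI, which for 2286 B cells allows a share of cells with a UMI of up to 0.131%. The cell types were drawn from the same counts, so these orders are a description. Between neighbours in the order, 0 of 33 exact sign permutation tests over mice passed after adjustment (smallest p = 0.0078, adjusted p = 0.0859), although Sorl1 was higher in leukocytes than in B cells in 7 of 7 mice, Cadm1 higher in structural than in myeloid cells in 8 of 8 and Klk8 higher in T cells than in structural cells in 8 of 8. The close pairs, with the order reversed in 3 or more mice, included Sorl1 in B cells and monocytes and Sorl1 in T cells and natural killer cells.

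**Figure D3:**
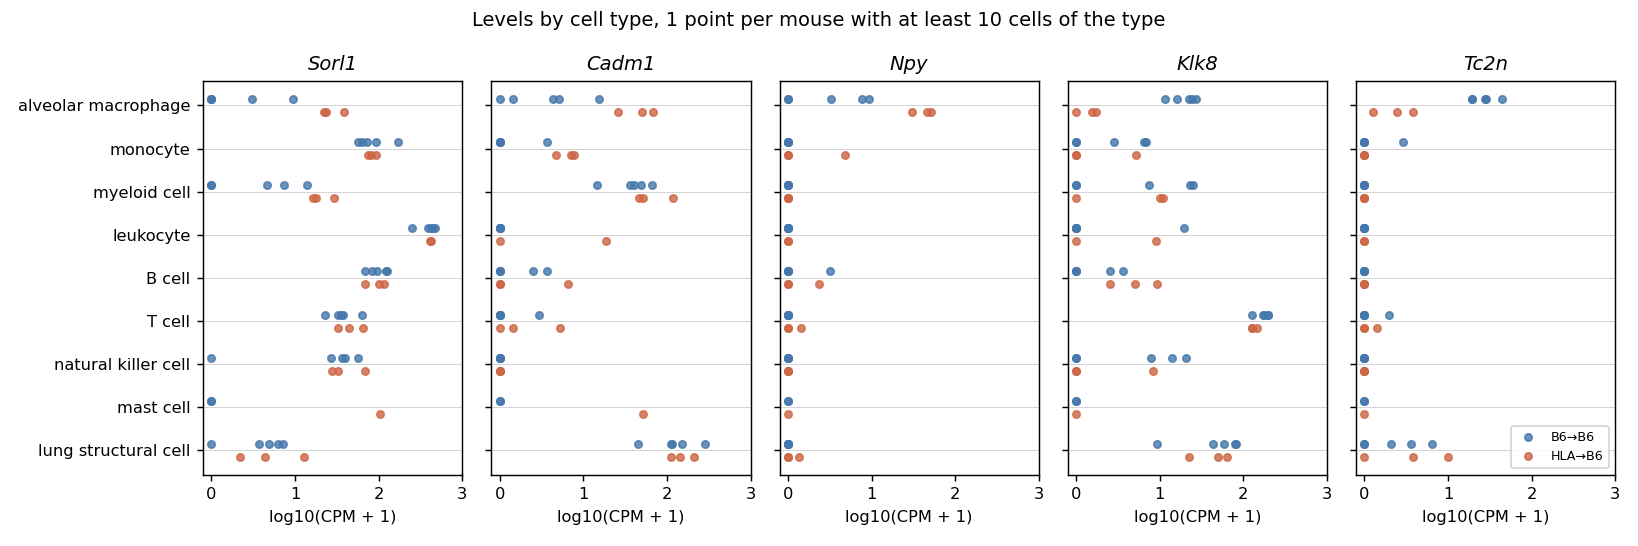
Level of each gene in 9 cell types (horizontal axes, log10 of CPM + 1; 1 point per mouse with at least 10 cells of the type; rows, deposited cell types). The groups lie apart in alveolar macrophages, and outside them the points of B6→B6 and HLA→B6 mice overlap in the types where a gene is high.

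Outside alveolar macrophages none of the genes was called between the groups. Counts allowed 8 tests of a gene in a cell type, and edgeR called 0 of them, with 0 at an unadjusted p under 0.05; DESeq2 also called 0, with 0 unadjusted. Over all genes, edgeR called 0.117% in B cells, 0% in leukocytes, 0.604% in lung structural cells, 0.023% in monocytes, 0% in myeloid cells and 0.0698% in T cells. These groups differed in few genes of any kind, so the members' 0 of 8 is near that background.

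Klk8 in T cells was at 174, 195, 169, 125 and 193 CPM in B6→B6 and at 126, 127 and 146 CPM in HLA→B6. All 3 HLA→B6 mice lay inside the range of the B6→B6 mice, near its lower end, set by replicate 4. The log2 difference was -0.41 (95% interval -0.82 to 0.01, edgeR adjusted p = 0.667). In lung structural cells, whose cell mix differs from graft to graft, the Klk8 difference was -0.28 (-0.80 to 0.25, adjusted p = 0.875).

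Cadm1 in lung structural cells was at 285, 116, 152, 112 and 43.5 CPM in B6→B6 and at 212, 142 and 110 in HLA→B6, a log2 difference of 0.23 (-0.37 to 0.82, adjusted p = 0.946). In myeloid cells it was at 35.2, 64.8, 47.8, 39.1 and 13.7 CPM against 118, 44.8 and 50.4, a difference of 0.77 (-0.18 to 1.72, adjusted p = 0.999). HLA→B6 replicate 1 alone stood above all B6→B6 mice there.

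Sorl1 in leukocytes was at 250, 417, 448, 476 and 383 CPM in B6→B6 and at 413 and 424 CPM in the 2 HLA→B6 mice with at least 10 such cells, a log2 difference of 0.05 (-0.57 to 0.67, adjusted p = 0.9996). The difference was -0.07 in B cells (-0.55 to 0.41), -0.04 in monocytes (-0.69 to 0.62) and 0.31 in T cells (-0.39 to 1.02). Whether these differences differ from that in alveolar macrophages was not tested.

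**Figure D4:**
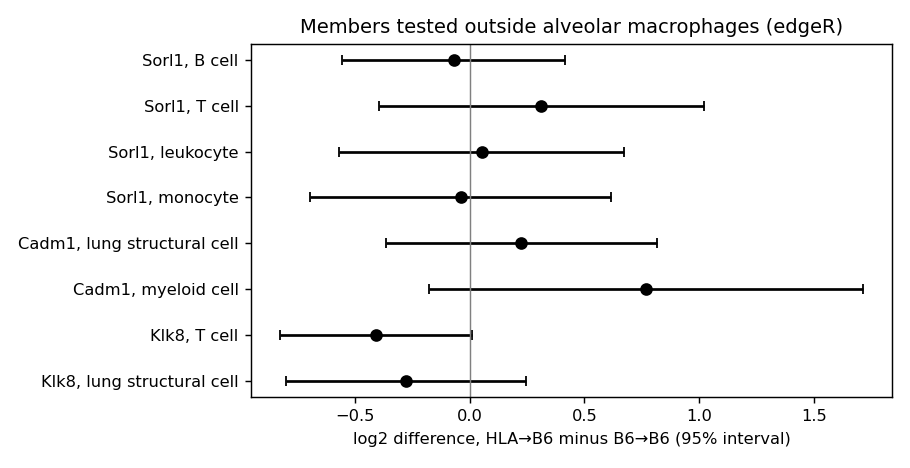
Log2 difference between the groups, HLA→B6 minus B6→B6 (horizontal axis), for the 8 tests of a gene in a cell type outside alveolar macrophages; points are edgeR estimates and bars 95% intervals. Every interval covers 0, and no estimate exceeds 0.77 in size.

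Below the filter on low counts, levels were given without a call. Sorl1 in myeloid cells was at 0, 6.48, 12.7, 3.56 and 0 CPM in B6→B6 and at 15.4, 28.2 and 16.8 CPM in HLA→B6, so that the groups did not overlap, on 9 and 30 UMIs; of the 8705 genes with at least 20 UMIs in myeloid cells, 3.09% were higher in HLA→B6 without overlap. With no filter its log2 difference was 1.77 (95% interval 0.25 to 3.28, edgeR adjusted p = 0.575). Cadm1 in monocytes was at 0, 0, 0, 2.72 and 0 CPM in B6→B6 and at 6.17, 3.77 and 6.76 CPM in HLA→B6, on 1 and 20 UMIs (edgeR adjusted p = 0.802), and 2.7% of 8821 such genes in monocytes were higher without overlap. Without the filter 27 tests were possible, 0 passed and 3 had an unadjusted p under 0.05, the third being Cadm1 in leukocytes, where all 11 UMIs came from HLA→B6 replicate 1. The summed cells of these types were not tested for an admixture of alveolar macrophages.

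Because Klk8 was highest in T cells, these were divided by their coreceptor, a comparison made after its values were seen. T cells with a UMI of Cd8a and none of Cd4 numbered 1656, and those with Cd4 and no Cd8a 675. Klk8 was at 244, 205, 227, 123 and 275 CPM in the Cd8a cells of B6→B6 replicates 1 to 5 and at 174, 160, 72.2, 132 and 61.1 CPM in the Cd4 cells. In HLA→B6 it was at 161, 135 and 166 CPM in Cd8a cells and at 109, 91.5 and 122 CPM in Cd4 cells. The exception to the order was B6→B6 replicate 4.

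Over the 8 mice Klk8 averaged 192 ± 54.5 CPM in Cd8a cells and 115 ± 40.0 CPM in Cd4 cells (SD, n = 8), higher in 7 of 8 mice (exact two-sided sign permutation p = 0.0156, adjusted over the 2 genes tested 0.0313). Among cells of at least 1000 UMIs, thinned to that depth, the share with a Klk8 UMI was higher in Cd8a cells in 8 of 8 mice. Shallower cells were left out, which in B6→B6 replicate 4 kept 73 of 153 Cd4 cells and 221 of 540 Cd8a cells. Sorl1 was at 47.1 ± 13.1 CPM in Cd8a cells and 30.6 ± 24.4 in Cd4 cells, higher in 6 of 8 mice (exact permutation p = 0.0469, adjusted 0.0469), and it lost this p in 6 of the 8 fits that left out a mouse, with p then between 0.0625 and 0.0938. B6→B6 replicate 1 and HLA→B6 replicate 3 held no Sorl1 UMI in 27 and 28 Cd4 cells, and without them the mean log2 difference went from 0.78 to 0.54 and 0.57.

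**Figure D5:**
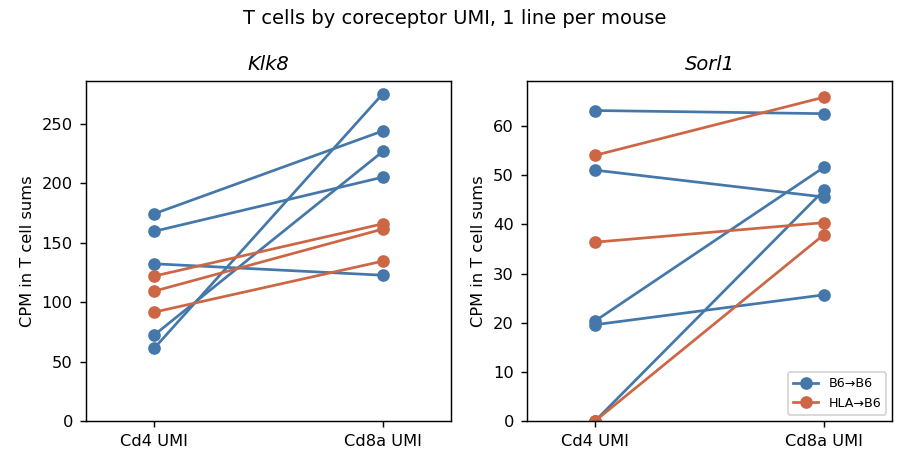
Level of Klk8 and Sorl1 in T cells with a Cd4 UMI and with a Cd8a UMI (vertical axes, CPM from 0; 1 line per mouse, 8 mice). Klk8 rises along 7 of 8 lines, and Sorl1 along 6 of 8.

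The genes with the most similar level over 69 sums of a mouse and a cell type, among 10266 genes, are given by Pearson's r of log2(CPM + 10), with no test, since sums of 1 mouse share a library and depth and since alveolar macrophages carry the contrast by which the members were chosen. For Npy these were Mmp12, the macrophage elastase (r = 0.86), Syngr1 (0.86) and Fam20c, a kinase of secreted proteins (0.82). For Tc2n they were Krt79, a keratin of alveolar macrophages (0.91), Gal, the neuropeptide galanin (0.91), and Trim29 (0.90). Cadm1 was most like Ccnd1, cyclin D1 (0.86), Sult1a1 (0.85) and Cmtm8 (0.83). Klk8 was most like Tdrp (0.92), Hdgfl3 (0.86) and Tesc, tescalcin (0.78). For Sorl1 they included Trim30b (0.81) and AB124611 (0.77). No member was among the 3 nearest of another, and the r between members lay between -0.41 and 0.17.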

How the data were processed

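The authors made the deposited counts, whole UMI counts per gene and cell, with Cell Ranger on mm10 (GRCm38); their methods state that barcodes under 200 UMIs and genes in fewer than 3 cells were left out and that free RNA was removed with SoupX. Cell types are the authors' labels, from Seurat clusters. Whether counts on either side of this removal were deposited could not be told from whole numbers alone. All 20778 cells and 17921 genes were used, and 0 columns of values were left unused. The 5 members and all gene lists were chosen with earlier results of these data known. Mice of the HLA→B6 group are numbered by the sample field of the table of cells, since the cell names carry other numbers.

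UMIs were summed per mouse and cell type (at least 10 cells) and compared with edgeR 4.0.16 (TMM, filterByExpr with a minimum count of 10, quasi-likelihood F test, adjusted p under 0.05 by Benjamini-Hochberg over all genes tested in a type) in R 4.3.3. Orders, co-detection and marker shares were compared by exact two-sided permutation of signs over mice, the latter in 5 strata of UMIs per cell. Each mouse is 1 library, so p-values measure the spread between grafts. Zero counts were read as at most 3 counts, and intervals are 95%. Doublets were marked by Scrublet in scanpy 1.11.5 at an expected rate of 0.06, which marked 258 cells (1.24%). Named beside the members are, per list, at most the 3 largest rises and falls past the threshold, and per member the 3 genes nearest in level with at least 200 UMIs, of which 1 is not reported here. On counts simulated for alveolar macrophages, with 200 of 5798 genes changed 4-fold, the test called 97.5% of the changed genes. For T cells, of 7164 genes, it called 96.0%. The simulated spread between mice was set by the level of a gene alone. These shares do not hold for smaller differences, such as those of the 8 tests outside alveolar macrophages. Alternatives were DESeq2 1.42.0, no filter, cells of at least 500 UMIs, cells without doublets or shared barcodes, blocks, and fits without each mouse.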

Additional observations from a re-analysis of the deposited data

How the results depend on the processing

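The 5 log2 differences in alveolar macrophages kept their direction in every alternative that gave a value. The count of calls outside alveolar macrophages stayed at 0 in all alternatives. Several gave no value in alveolar macrophages. Klk8 had none with cells of at least 500 UMIs, without doublets, or without B6→B6 replicate 1, 3 or 4. Sorl1 had none with cells of at least 500 UMIs, and Tc2n none without B6→B6 replicate 1, 2 or 5. Without cells of shared barcodes the difference was 5.27 for Cadm1, 4.96 for Npy and -4.17 for Tc2n, and Sorl1 and Klk8 fell below the filter. With the replicate block, for mice 1 to 3 of each group, it was 3.03 for Sorl1, 2.78 for Cadm1 and 3.32 for Npy, and Klk8 and Tc2n could not be fitted. The replicate numbers did not pair the mice (correlations of same-numbered deviations -0.10, 0.22 and -0.04), and this block moved the calls over all genes in alveolar macrophages from 712 to 253. Leaving out single mice gave 3.45 (without B6→B6 replicate 4) to 6.39 (without B6→B6 replicate 2) for Sorl1, 3.29 (without B6→B6 replicate 4) to 5.45 (without B6→B6 replicate 3) for Cadm1, 3.69 to 4.55 for Npy, -4.77 to -4.56 for Klk8 and -4.99 to -3.58 for Tc2n, the last 2 where the gene passed the filter. The cause was not tested.

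Outside alveolar macrophages, differences near 0 changed sign. Sorl1 in leukocytes was -0.0918 with at least 20 cells per mouse, and Sorl1 in monocytes was 0.000198 with no filter and 0.21 with the replicate block. Leaving out single mice gave -0.22 to 0.0783 for Sorl1 in B cells, -0.0296 to 0.0905 in leukocytes, -0.19 to 0.28 in monocytes and -0.00791 to 1.09 for Cadm1 in myeloid cells. Over all genes in alveolar macrophages, calls numbered 180 without HLA→B6 replicate 2, 1116 without cells of shared barcodes and 1253 with the library set as a block, against 712. Co-detection could not be tested for any pair with cells of at least 500 UMIs, without shared barcodes or without any 1 of the HLA→B6 mice. The difference of Sorl1 between Cd8a and Cd4 T cells lost its p without 6 of the 8 mice in turn, and that of Klk8 kept its side of the threshold. The cell type with the highest level of each gene was the same in every alternative run for the order. Co-detection and the marker lists had too few mice to pass in any setting, so their counts of 0 say nothing of stability. Depth limits the low group: 3 counts over the B6→B6 alveolar macrophages equal 0.77 CPM, and 3 HLA→B6 mice set the spread.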
